A study of Mus musculus with 3 samples.

Results

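Langerhans cells were examined in single-cell RNA-seq libraries of whole skin from 9-week-old C57BL/6 mice. There were 3 libraries and 1 per group. The UV library came from irradiated skin given saline, the UV plus vitamin D library from irradiated skin given VD, read here as vitamin D from the title of the series, and the control library from normal skin given saline. The UV dose and schedule, the vitamin D dose and the number of mice behind each library are not given in the sources used here. A barcode was counted as a Langerhans cell when it had at least 200 detected genes, at most 20% mitochondrial counts, a Cd207 count of at least 2, a Cd74 count of at least 10, and no count of Cd3e or Col1a2. This rule found 132 of 20728 kept cells, 54 of 5451 in UV skin, 25 of 6199 in UV plus vitamin D skin and 53 of 9078 in control skin. Because the cells were chosen by their Cd207, Cd74, Cd3e and Col1a2 counts, the levels of these genes in them are a description. With 1 library per group no test between groups was possible. The intervals printed are 95% intervals of counting error within a library and do not cover differences between animals. Intervals of folds treat the summed counts as independent, so they do not cover differences between cells either. They are too narrow where few cells hold most counts of a gene.

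Langerhans cells are the dendritic cells of the epidermis. They sit between keratinocytes, hold on to them through E-cadherin, and carry EpCAM and langerin, the product of Cd207, a lectin that forms Birbeck granules. They take up antigen, load it on MHC class II molecules, and after activation can raise CCR7 and costimulatory molecules and travel to the draining lymph node, and in mouse skin ultraviolet light is known to lower their number for some time.

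Beyond the rule genes, the cells differed in how many keratinocyte counts they held. The 8 keratinocyte markers (Krt5, Krt14, Krt1, Krt10, Krtdap, Dsp, Perp and Sfn) took a median of 0.184% of a cell's counts in UV skin, 1.65% in UV plus vitamin D skin and 2.35% in control skin. They passed 1% in 3 of 54 UV cells (5.56%, exact binomial interval 1.16 to 15.4%), 14 of 25 UV plus vitamin D cells (56.0%, 34.9 to 75.6%) and 39 of 53 control cells (73.6%, 59.7 to 84.7%). In the control library, cells above 1% had a median of 11051 counts, against 3273.5 counts in cells at or below it. Whether these barcodes hold 2 cells was not tested, and no doublets were removed. A second difference lay in the UV library, where 16 of 54 cells had a count of fewer than 2 of the other markers H2-M2, Mfge8 and Epcam, compared with 2 of 25 UV plus vitamin D cells and 0 of 53 control cells.

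The 16 UV cells with fewer than 2 of these markers had a median Cd207 count of 3, and 14 of them had a count of Il1b and 14 a count of Lyz2, which encodes the lysozyme of myeloid cells. In 12 of these 16 cells all 3 markers were at 0, so that the name Langerhans cell rests on Cd207 and Cd74 alone, and the other 4 had a count of 1 marker. All of the UV cells just inside the rule, 11 cells with a Cd207 count of 2 or 3, had ample Cd74, between 91 and 932 counts, and 3 of the 11 had a count of any of the 3 other markers. No UV plus vitamin D or control cell had so low a Cd207 count. Just outside the rule stood 9 UV, 2 UV plus vitamin D and 4 control cells with a Cd207 count of 1 and at least 10 Cd74 counts, and 2, 7 and 10 cells in the same order with enough Cd207 but fewer than 10 Cd74 counts. Counts of Cd3e kept out 1, 1 and 3 further cells, and counts of Col1a2 7, 0 and 4.

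The levels of most genes and lists below are therefore given for all 132 Langerhans cells and beside them for 58 cells, here called the marked cells, that had at most 1% keratinocyte-marker counts and a count of at least 2 of H2-M2, Mfge8 and Epcam. These numbered 35 in UV skin, 9 in UV plus vitamin D skin and 14 in control skin. The marked cells were defined after the values had been seen. Their median total was 3950 counts in UV skin, 4527 in UV plus vitamin D skin and 3273.5 in control skin, closer together than the 4399, 7746 and 9482 counts of all Langerhans cells. Levels are CPM, counts scaled to a total of 1000000 over the summed counts of the cells, which came to 264162, 190805 and 484252 counts for all Langerhans cells and 155072, 49276 and 47762 counts for the marked cells.

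**Figure D1:**
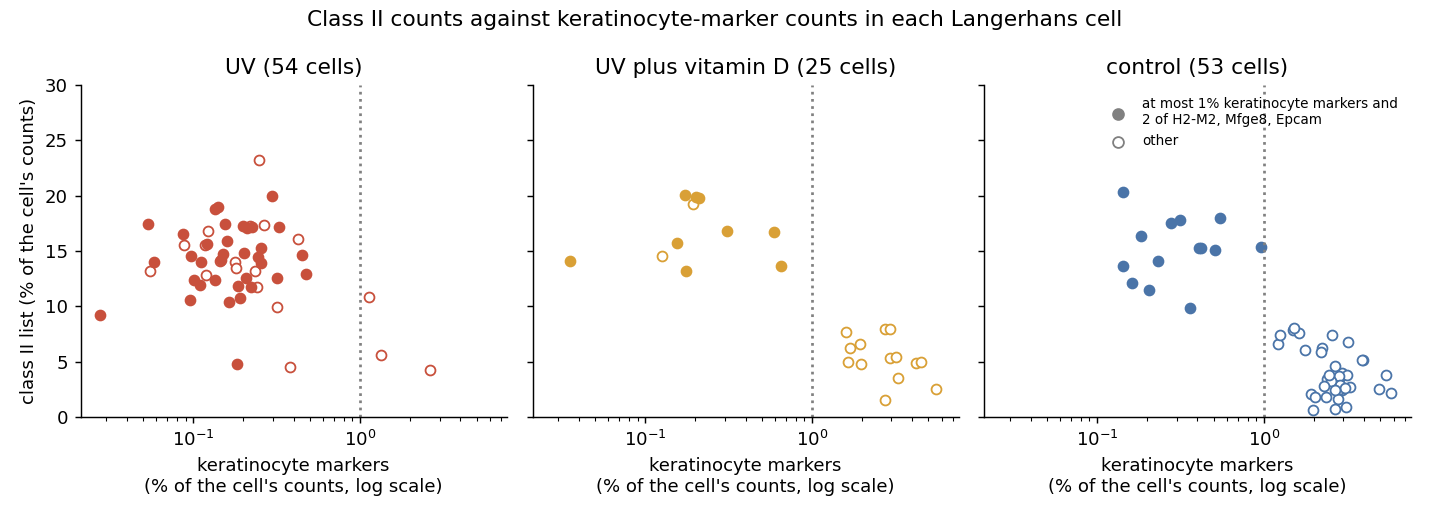
Each point is 1 Langerhans cell, in 1 panel per library, with the percent of its counts from the 8 keratinocyte markers on a log axis and the percent from the class II list on the vertical axis. Both are shares of the same cell total, and the class II list includes the rule gene Cd74. Filled points are the marked cells and the dotted line stands at 1%. In UV plus vitamin D and control skin no cell right of the line passes 8.02% class II counts, and 39 of 53 control cells lie right of it, against 3 of 54 UV cells.

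All 5 marker genes named for Langerhans cells were found in every library. Cd207 stood at 7389 CPM in UV, 9544 CPM in UV plus vitamin D and 4884 CPM in control Langerhans cells, and at 10.51, 1.39 and 5.15 CPM in the remaining cells of the same libraries. Mfge8, which encodes a bridging protein for dying cells, stood at 3850, 3307 and 1551 CPM, and H2-M2, a nonclassical MHC class I gene, at 670, 524 and 469 CPM. Epcam, the epithelial adhesion molecule, stood at 341, 372 and 349 CPM and was no higher than in the remaining cells, at 426, 548 and 494 CPM. In the marked cells the levels were higher for Cd207, with 10756, 21633 and 13965 CPM, and for Mfge8, with 5772, 7671 and 6135 CPM. H2-M2 stood at 1025, 893 and 1633 CPM there, with control highest where UV was highest over all cells, and Epcam at 458, 446 and 419 CPM. These 3 genes besides Cd207 were used to define the marked cells.

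Single cells spread widely in these genes. The lowest, median and highest Cd207 counts were 2, 25.5 and 160 in UV cells, 8, 60 and 215 in UV plus vitamin D cells, and 4, 34 and 129 in control cells, so the 3 libraries overlapped over most of their range. A count of Mfge8 was present in 41 of 54 UV cells, 24 of 25 UV plus vitamin D cells and 53 of 53 control cells, and a count of H2-M2 in 33, 20 and 46 cells. After each cell was thinned to 2500 counts, Mfge8 was found in 74.1% of UV cells, 96.0% of UV plus vitamin D cells and 88.7% of control cells. In the remaining cells, which should mostly lack it, a count of Mfge8 was present without thinning in 9.34%, 1.93% and 1.71%, at median totals of all kept cells of 7566, 9301 and 6822.5 counts.

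**Figure D2:**
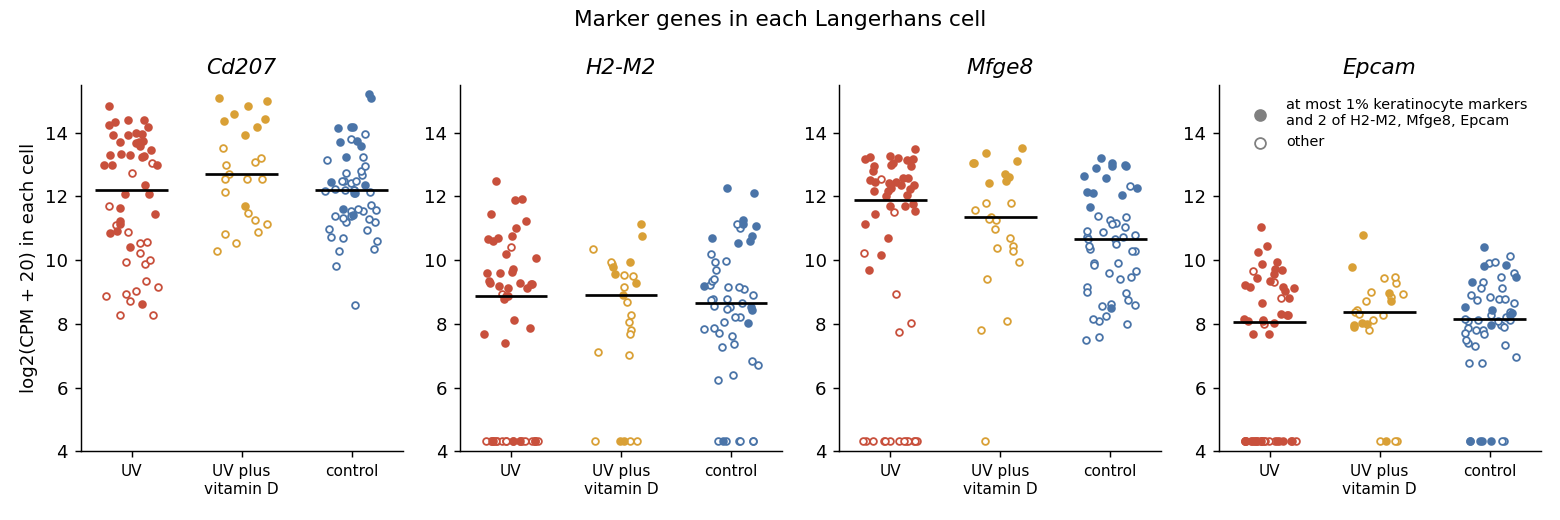
Each point is 1 Langerhans cell, placed by log2(CPM + 20) of Cd207, H2-M2, Mfge8 and Epcam in that cell, in the order UV, UV plus vitamin D and control, with a line at the median. Filled points are the marked cells, and the row of points at the bottom of the last 3 panels are cells with no count of that gene, which for Mfge8 are 13 UV cells, 1 UV plus vitamin D cell and 0 control cells.

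Other genes also had a high level relative to the remaining cells in each library. By the lowest of the 3 ratios, the leading genes after Cd207, H2-M2 and Mfge8 were Tbc1d4, a Rab GTPase-activating protein, at 784, 734 and 712 CPM in UV, UV plus vitamin D and control cells, and Pgf, a growth factor of the VEGF family, at 515, 236 and 66.1 CPM. Alox5 and Ltc4s, which encode the 5-lipoxygenase and the synthase of leukotriene C4, stood at 201 and 220 CPM in UV, 157 and 194 CPM in UV plus vitamin D, and 78.5 and 138 CPM in control cells. Havcr2, which encodes the receptor TIM-3, stood at 503, 278 and 227 CPM. The other 7 of the 15 leading genes were Cd74, H2-Aa, H2-Ab1, H2-Eb1, H2-DMa, H2-DMb1 and H2-DMb2, all of the MHC class II pathway.

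These genes separated Langerhans cells from other antigen-presenting cells to different degrees. Other Cd74-high dendritic cells (with Cd207 under 2, a Ptprc count, no Mrc1, and a count of Flt3, Cd209a, Xcr1 or Ccr7) numbered 56 in UV, 1 in UV plus vitamin D and 5 in control skin. In the 56 UV cells, H2-M2 was at 0, which in 248143 summed counts allows up to 12.1 CPM, Mfge8 at 16.1 CPM and Alox5 at 8.06 CPM, against 670, 3850 and 201 CPM in UV Langerhans cells. Other leading genes stood closer, with Tbc1d4 at 234 CPM, Pgf at 214 CPM and Havcr2 at 262 CPM in these dendritic cells, against 784, 515 and 503 CPM in UV Langerhans cells. Class II did not separate them, since H2-Aa stood at 24147 CPM in these dendritic cells and at 21858 CPM in UV Langerhans cells. Cd209a, a marker of dermal dendritic cells, stood at 979 CPM in these dendritic cells and at 68.1 CPM in UV Langerhans cells, where 1 cell held 94.4% of its counts. A Cd209a count was one way into this set of dendritic cells, so its level there follows in part from the choice. A macrophage-like set of 134, 63 and 86 Cd74-high cells had a Ptprc count, a Mrc1 count of at least 2 and Cd207 under 2. Its Cd207 level of 1.16, 2.93 and 4.33 CPM follows from that choice and is a description.

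Markers of other cell types moved with the libraries. The macrophage list (8 genes, among them C1qa, C1qb, C1qc and Mrc1) summed to 1681 CPM in UV, 655 CPM in UV plus vitamin D and 41.3 CPM in control Langerhans cells, with 7, 5 and 4 of its genes found, and to 251, 264 and 41.9 CPM in the marked cells. A count of any macrophage gene was present in 30, 12 and 11 Langerhans cells. In UV plus vitamin D 1 cell held 68.8% of the macrophage counts, against 24.5% for the top cell in UV. The monocyte list (5 genes) summed to 144, 10.48 and 0 CPM, and all 5 of its genes, Ly6c2 and Ccr2 among them, were at 0 in control cells. The T cell list (7 genes) summed to 56.8, 68.1 and 132 CPM, with a count of any of its genes in 7, 7 and 18 cells. Cd3e was at 0 by the rule, and Cd3g and Trac were at 0 in all 3 libraries. Cd3d and Trdc were found in control cells only. Clec9a, which marks type 1 dendritic cells, was at 0 in every library, Xcr1 was found in UV cells only, and the 4 NK cell markers were at 0. Their part in the differences below was not tested beyond the values in the marked cells.

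Langerhans cells made up 0.991% of kept cells in UV skin (exact binomial interval 0.745 to 1.29%), 0.403% in UV plus vitamin D skin (0.261 to 0.595%) and 0.584% in control skin (0.438 to 0.763%). The share in UV skin was 1.70 times that in control skin (interval 1.16 to 2.47). In UV plus vitamin D skin it was 0.407 times that in UV skin (0.254 to 0.653) and 0.691 times that in control skin (0.430 to 1.11), an interval that includes 1. For the marked cells the shares were 0.642%, 0.145% and 0.154%, and the ratios were 4.16 (2.24 to 7.73) for UV over control, 0.226 (0.109 to 0.470) for UV plus vitamin D over UV, and 0.941 (0.408 to 2.17) for UV plus vitamin D over control. With only the second condition, a count of at least 2 of the 3 markers, the log2 ratio of the UV share over the control share was 0.26, against 0.76 for all Langerhans cells. With only the first condition, at most 1% keratinocyte-marker counts, this log2 ratio was 2.60. No intervals are given for these log2 ratios.

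**Figure D3:**
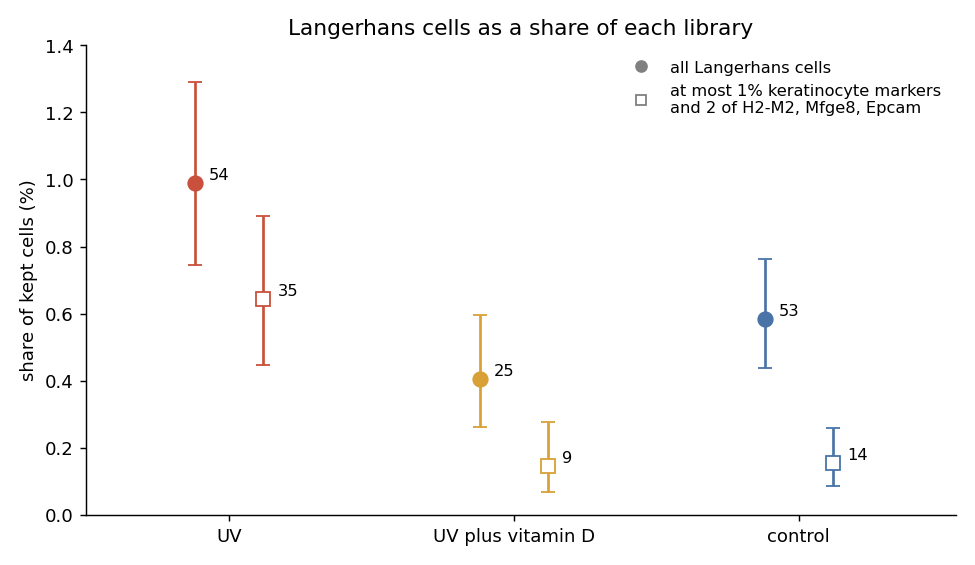
Langerhans cells as a percent of kept cells in each library, with 95% exact binomial intervals (counting error of 1 library each) and the number of cells beside each point. Filled circles are all Langerhans cells and open squares the marked cells, and both are highest in UV skin, at 0.991% and 0.642%.

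The share also depended on the cells it was set against. Among cells with at least 10 Cd74 counts and no Cd3e or Col1a2, Langerhans cells were 54 of 460 in UV skin (11.7%, 8.94 to 15.04%), 25 of 101 in UV plus vitamin D skin (24.8%, 16.7 to 34.3%) and 53 of 165 in control skin (32.1%, 25.1 to 39.8%). In that setting UV skin had the lowest share, and cells with a count of Ptprc, the gene of the leukocyte antigen CD45, made up 14.4% of kept cells in UV skin against 2.48% in UV plus vitamin D and 2.90% in control skin. Shares in dissociated skin reflect which cells were released and kept as well as how many were there, and the 2 cannot be told apart.

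Gene differences between libraries were read as log2 ratios of CPM + 20, and a gene was counted as higher or lower when it passed 1.5-fold with at least 20 counts over the pair. By that rule 16.8% of 3739 genes were higher and 32% lower in UV than in control Langerhans cells (48.7% in either direction), with a median over all genes of -0.21. In UV plus vitamin D compared with UV cells, 23.1% of 2480 genes were higher and 16.5% lower (39.6% in all, median 0.09, with 573 genes higher and 408 lower), and compared with control cells 11.2% of 3487 genes were higher and 17.5% lower (28.7% in all, median -0.09). In the marked cells 35.1% of 1106 genes were higher and 15.6% lower in UV than in control (50.6% in all, median 0.29), 13.7% of 1115 higher and 23.2% lower in UV plus vitamin D than in UV (37% in all, median -0.10), and 26.4% of 522 higher and 16.9% lower in UV plus vitamin D than in control (43.3% in all, median 0.17). Scaling by the median of ratios in place of the total gave 447 genes higher and 562 lower between UV plus vitamin D and UV cells, and all-gene medians of -0.10, -0.06 and -0.11 for the 3 comparisons as ordered above. These shares are the background for the counts that follow, and a list near them does not stand out. Of the list of 30 identity genes, 15 were higher and 4 lower of 24 measured in UV than in control over all cells (median 0.63), and 3 higher and 5 lower of 18 in the marked cells (median -0.34). The identity list includes the rule genes Cd207 and Cd74, both among the 15 higher. It also includes H2-M2, Mfge8 and Epcam, which define the marked cells, so these counts are a description.

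The MHC class II pathway differed between libraries over all Langerhans cells, and its median was near 0 in the marked cells. Over all Langerhans cells, 12 of 14 measured class II genes were higher in UV than in control and 1, the protease gene Ctsl, lower, with a list median of 1.44. The list includes the rule gene Cd74, which is 1 of the 12, and its part in these values is a description. Cd74, which encodes the invariant chain, stood at 73777 CPM in UV, 48075 CPM in UV plus vitamin D and 23630 CPM in control cells, and H2-Aa, a class II alpha chain, at 21858, 14161 and 7692 CPM. H2-Aa was 2.84-fold higher in UV than in control (2.73 to 2.96), and in UV plus vitamin D it was 0.648 times UV (0.619 to 0.678) and 1.84 times control (1.75 to 1.93). In the marked cells Cd74 stood at 77732, 88420 and 78577 CPM and H2-Aa at 22087, 27904 and 25271 CPM, and H2-Aa in UV was 0.874 times control (0.818 to 0.934). There, 3 of 10 class II genes were higher in UV than in control and 0 lower, with a list median of -0.09.

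The same division was seen cell by cell in percent of counts. Class II genes, with the rule gene Cd74 among them, took a median of 14.1% of a cell's counts in UV, 7.93% in UV plus vitamin D and 4.67% in control cells. Among cells with over 1% keratinocyte-marker counts the medians were 5.63% in UV, 5.15% in UV plus vitamin D and 3.45% in control, and among those with at most 1% they were 14.2%, 16.7% and 15.3%. These percents also depend on a cell's total counts. The median class II counts per cell were 777 (3 cells), 456.5 and 374 above 1%, and 597, 851 and 514.5 at or below it. In counts the UV cells above 1% thus stood higher, not lower. The ranges of the marked cells overlapped, with 4.78 to 19.9% in UV, 13.2 to 20.1% in UV plus vitamin D and 9.88 to 20.3% in control. Between UV plus vitamin D and UV, 0 of 13 class II genes were higher and 9 lower over all cells (median -0.63), against 0 higher and 3 lower of 10 in the marked cells (median 0.01). Between UV plus vitamin D and control, 9 of 13 were higher and 1 lower over all cells (median 0.82), against 1 higher and 0 lower of 10 in the marked cells (median 0.08).

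Within the class II list, Ifi30 was past 1.5-fold in both settings. This gene, which encodes the lysosomal thiol reductase GILT, stood at 329 CPM in UV, 152 CPM in UV plus vitamin D and 31.0 CPM in control cells, and at 329, 325 and 83.7 CPM in the marked cells, where UV was 3.93-fold higher than control (1.44 to 14.96, on 51 and 4 counts). H2-DMb2, a chain of the peptide-loading DM molecule, was 3.85-fold higher in UV than in control over all cells (2.73 to 5.48) and 1.79-fold higher in the marked cells (1.05 to 3.26). Ctss, the gene of the protease cathepsin S, was 6.18-fold higher over all cells (5.19 to 7.39) and 1.19-fold in the marked cells (0.889 to 1.63).

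Class II genes are switched on together by CIITA through conserved promoter boxes. The promoters of H2-Aa and H2-Eb1, genes that were 2.84-fold and 2.68-fold higher in UV than in control over all cells, are shown as the RefSeq table of build GRCm38.p6 gives them, 5′ to 3′ on the strand of the gene, with capitals marking ATTGG or its complement CCAAT (the core of the Y box) and AGCAAC or GTTGCT (one form of the X1 box core), searched on both strands. The windows are chr17:34287774-34288073 on the minus strand for H2-Aa and chr17:34305617-34305916 on the plus strand for H2-Eb1.
H2-Aa: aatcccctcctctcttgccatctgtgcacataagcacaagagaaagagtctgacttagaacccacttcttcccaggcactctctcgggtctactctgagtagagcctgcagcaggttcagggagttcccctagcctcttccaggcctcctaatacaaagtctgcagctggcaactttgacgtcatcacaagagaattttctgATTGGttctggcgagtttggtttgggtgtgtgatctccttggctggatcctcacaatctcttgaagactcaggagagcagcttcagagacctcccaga
H2-Eb1: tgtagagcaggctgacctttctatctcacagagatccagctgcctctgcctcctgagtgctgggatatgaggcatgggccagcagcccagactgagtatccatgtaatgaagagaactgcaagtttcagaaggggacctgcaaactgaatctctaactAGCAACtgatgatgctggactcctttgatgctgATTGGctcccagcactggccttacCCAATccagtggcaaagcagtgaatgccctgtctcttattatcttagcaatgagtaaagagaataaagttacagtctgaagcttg
H2-Aa held 1 Y box core and 0 of these X1 letters, and H2-Eb1 held 2 and 1. Of 32817 promoters of the same length, 37.4% held the Y box core, 14.8% the X1 letters and 5.84% both, so these short matches are common and are given as a description.

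Maturation genes were more often higher in UV than in control over all cells, and as often lower as higher in the marked cells. Over all Langerhans cells, 8 of 20 measured genes of the maturation and migration list were higher in UV than in control and 0 lower (median 0.46). In the marked cells it was 3 higher and 3 lower of 12 (median -0.07). Between UV plus vitamin D and UV, 3 were higher and 5 lower of 19 over all cells (median 0.02), and 4 higher and 0 lower of 12 in the marked cells (median 0.21). Between UV plus vitamin D and control, 9 were higher and 0 lower of 17 over all cells (median 0.67), and 1 higher and 3 lower of 8 in the marked cells (median -0.39). The list took a median of 0.456% of a cell's counts in UV, 0.414% in UV plus vitamin D and 0.324% in control cells, and 0.442%, 0.562% and 0.581% in the marked cells.

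Ccr7, the receptor that guides mature dendritic cells to lymph nodes, was found in few cells. A count was present in 6 of 54 UV cells (11.1%, 4.19 to 22.6%), 4 of 25 UV plus vitamin D cells (16.0%, 4.54 to 36.1%) and 3 of 53 control cells (5.66%, 1.18 to 15.7%), against 1.80%, 0.113% and 0.155% of the remaining cells. Thinned to 2500 counts per cell, the shares of Langerhans cells were 9.26%, 8% and 5.66%. Of the 53 UV counts, 3 cells held 23, 16 and 8, whose Cd207 counts were 5, 2 and 2 and which had 0, 0 and 1 of the 3 other markers. The marked cells held 6, 7 and 9 Ccr7 counts, in 3 of 35, 2 of 9 and 1 of 14 cells. In the other Cd74-high dendritic cells of UV skin, 60.7% had a count of Ccr7. A Ccr7 count was one way into that set, so this share is raised by the choice of cells and is a description. Fscn1, which encodes the actin bundler fascin of mature dendritic cells, had 0, 0 and 16 counts, and Ccl17 had 0 in every library.

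The costimulatory genes Cd86 and Cd83 stood above control in UV cells over all cells, Cd86 by less than 1.5-fold, and below it in the marked cells. Cd86, a ligand of CD28, stood at 413 CPM in UV, 571 CPM in UV plus vitamin D and 316 CPM in control cells, and at 516, 873 and 1235 CPM in the marked cells, where UV was 0.418 times control (0.295 to 0.595). Cd83, a surface molecule of activated dendritic cells, stood at 893, 440 and 427 CPM, and at 929, 629 and 1591 CPM in the marked cells. There UV was 0.584 times control (0.439 to 0.781), and UV plus vitamin D was 0.677 times UV (0.444 to 1.004) and 0.395 times control (0.252 to 0.608). Both genes were thus highest in control skin among the marked cells, while over all cells Cd83 was 2.09-fold higher in UV than in control (1.73 to 2.53). Cd80 had 6, 0 and 0 counts, Cd274, which encodes PD-L1, 12, 6 and 4, and Relb 8, 7 and 9, too few to compare.

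Among cytokine and chemokine genes, over all cells 13 of 15 were higher in UV than in control and 0 lower (median 1.15), and in the marked cells 1 was higher and 3 lower of 9 (median 0.09). Il1b, which encodes interleukin 1 beta, had 329 counts (1245 CPM) in UV, 94 (493 CPM) in UV plus vitamin D and 154 (318 CPM) in control cells. The marked cells held 39, 39 and 67 of these counts (251, 791 and 1403 CPM), so 11.9% of the UV counts lay in marked cells, and there UV was 0.179 times control (0.118 to 0.270) and UV plus vitamin D 3.15 times UV (1.97 to 5.04). These Il1b counts lay in 7 of 35, 3 of 9 and 7 of 14 marked cells. In UV 1 marked cell held 24 of the 39 counts, and in UV plus vitamin D 1 marked cell held 29 of the 39. Cxcl2, a neutrophil chemokine, stood at 1828, 749 and 516 CPM over all cells and at 1438, 2029 and 3162 CPM in the marked cells. A Cxcl2 count was present in 20 of 35, 4 of 9 and 8 of 14 marked cells. Of the 100 counts in the UV plus vitamin D marked cells, 1 cell held 73. Tnf stood at 110, 244 and 335 CPM in the marked cells, on 17, 12 and 16 counts. Il10 with 8 counts and Il12b with 14 counts were each found in 1 UV cell and in 0 cells of the other libraries. Il1r2, the decoy receptor of interleukin 1, stood at 3664, 3417 and 2234 CPM over all cells and 5256, 6880 and 6491 CPM in the marked cells.

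Receptors for pattern recognition and uptake had 10 genes higher and 0 lower of 13 in UV than in control over all cells (median 1.87), and 1 higher and 2 lower of 8 in the marked cells (median -0.16). In UV plus vitamin D against UV the counts were 0 higher and 7 lower of 12 (median -1.01), and 3 higher and 2 lower of 8 in the marked cells (median 0.41). By the rule for named genes, the 8 genes furthest up in UV over control Langerhans cells were Cd14, a co-receptor for bacterial lipopolysaccharide, C1qb and C1qc of complement C1q, Srgn, Lyz2, Wfdc17, Cyba, a subunit of the phagocyte oxidase, and the interferon-induced Ifi27l2a. Cd14 stood at 799 CPM in UV, 356 CPM in UV plus vitamin D and 14.5 CPM in control cells, and C1qb at 753, 220 and 16.5 CPM. The UV plus vitamin D counts of Cd14 lay in 2 cells, with 61.8% in 1 of them. Those of C1qb lay in 3 cells, with 88.1% in 1 of them. Wfdc17 had 90, 8 and 0 counts, which made UV at least 55.0-fold higher than control against the floor of 3 counts. Most of the UV counts of these genes lay outside the marked cells, which held 6.16% of the UV counts of Cd14, 4.02% of C1qb, 2.33% of Lyz2 and 3.41% of Srgn. Cyba and Plaur, the urokinase receptor gene, kept a difference in the marked cells, at 239, 40.6 and 62.8 CPM and at 368, 122 and 83.7 CPM, with folds of UV over control of 3.80 (1.20 to 19.3) and 4.39 (1.62 to 16.7).

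The genes furthest down included Ifi202b, Serpinb2, Krt15, Mt2, Sfn, Igfbp3 and Krt5, among them the keratinocyte genes Krt5, Krt15 and Sfn. Krt5, the basal keratin, stood at 144 CPM in UV, 1640 CPM in UV plus vitamin D and 4240 CPM in control Langerhans cells, and at 588, 425 and 714 CPM in the remaining cells. Serpinb2, an inhibitor of plasminogen activators, stood at 413, 8480 and 23042 CPM, and at 406, 589 and 879 CPM in the marked cells. Ifi202b stood at 7.57, 875 and 2862 CPM, on 2, 167 and 1386 counts, of which the marked cells held 1, 1 and 2. The control marked cells had 0 counts of Krt14 in 14 cells, compared with a count in 32 of the 39 other control cells, a contrast that follows in large part from the limit on keratinocyte-marker counts, of which Krt14 is one.

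**Figure D4:**
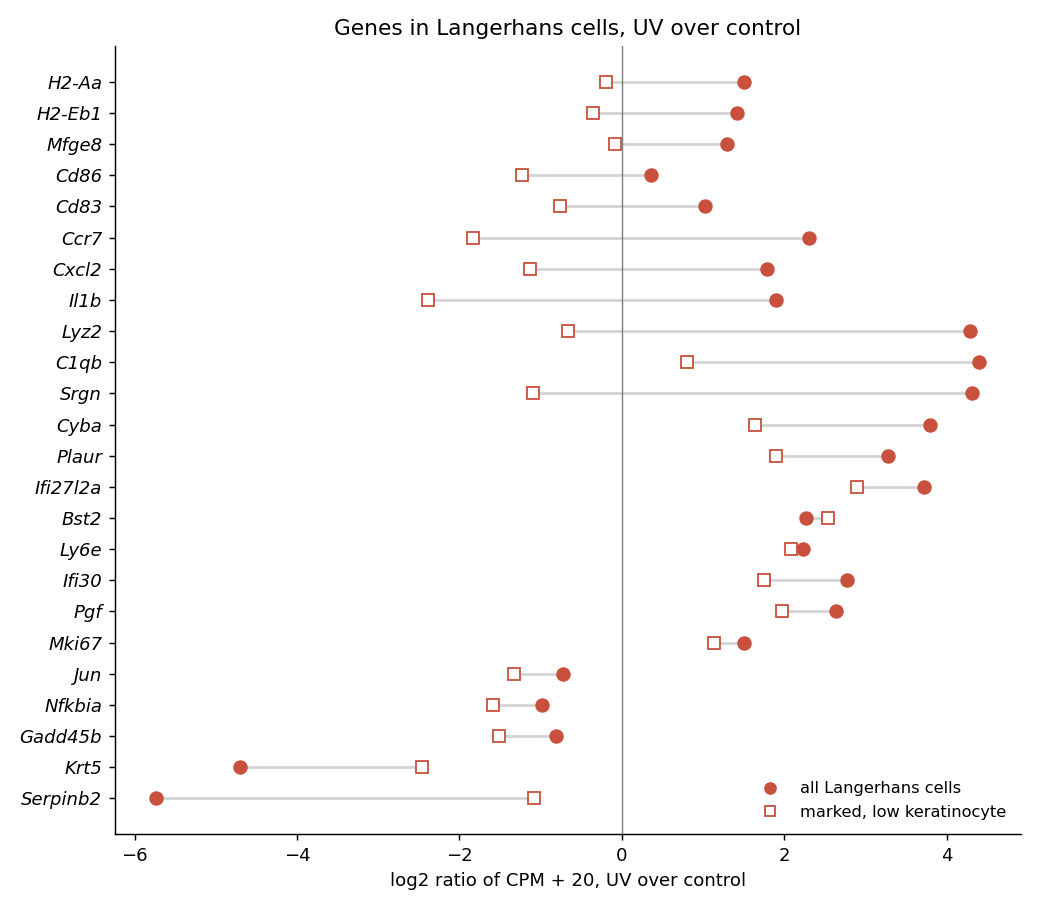
Log2 ratio of CPM + 20, UV over control, for 24 genes named in the text, with filled circles for all Langerhans cells and open squares for the marked cells, and no replicates behind either. H2-Aa, H2-Eb1, Mfge8, Cd83, Ccr7, Cxcl2 and Il1b lie right of 0 over all cells and left of 0 in the marked cells, while Ifi27l2a, Bst2, Ly6e, Ifi30, Pgf and Plaur lie right of 0 in both.

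Among UV plus vitamin D against UV cells, the 8 genes furthest up included keratinocyte genes again, and were Ifi202b, Krt16, Krt15, Krt5, Col17a1, Gja1, Ece1 and Csrp1. Krt16, a keratin of wounded skin, stood at 535 CPM in UV plus vitamin D and 26.5 CPM in UV cells, and Col17a1, a hemidesmosome collagen, at 262 and 15.1 CPM. None of the 8 had more than 6 counts in the UV plus vitamin D marked cells. The 8 genes furthest down were Ifi27l2a, Srgn, Wfdc17, Cyba, Hist1h2bc, Plaur, Npc2 and Fcgr2b. Hist1h2bc, a histone gene, was lower in both settings, at 110 CPM in UV plus vitamin D, 564 CPM in UV and 314 CPM in control cells, and at 81.2, 542 and 1005 CPM in the marked cells, where UV plus vitamin D was 0.150 times UV (0.0399 to 0.398). Fcgr2b, the inhibitory Fc receptor gene, stood at 73.4 CPM in UV plus vitamin D and 314 CPM in UV cells.

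Between UV plus vitamin D and control cells, the 8 genes furthest up were Emp3, Vim, Pgf, Tcp11l2, Napsa, Csf2rb, Ifnar1 and Cd68. Vim, the intermediate filament of leukocytes, stood at 2883 CPM in UV plus vitamin D and 886 CPM in control cells, and at 5865 and 2785 CPM in the marked cells (2.11-fold, 1.71 to 2.61). Csf2rb, the common receptor chain for GM-CSF, stood at 398 and 126 CPM, and at 994 and 398 CPM in the marked cells (2.50-fold, 1.45 to 4.50). Pgf was 3.57-fold higher over all cells (2.22 to 5.80) and 3.32-fold in the marked cells (1.39 to 9.13), and its UV levels of 515 CPM over all and 632 CPM in marked cells were above both. The 8 genes furthest down were Thbs1, Ccnd2, Nr1d1, Krt15, Smoc2, Wls, Itgb4 and Dsg3, and the marked cells of UV plus vitamin D and control skin together held at most 3 counts of any of them. Nr1d1, a clock repressor, had 0 counts in UV plus vitamin D and 32 in control cells, at least 4.203-fold lower against the floor of 3 counts.

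Interferon-stimulated genes were higher in UV in both settings, on few measured genes. Over all cells 6 of 8 were higher in UV than in control and 1 lower (median 1.62), and in the marked cells 2 of 3 were higher and 0 lower (median 2.08). Ly6e stood at 969 CPM in UV, 320 CPM in UV plus vitamin D and 190 CPM in control cells, and at 864, 629 and 188 CPM in the marked cells, where UV was 4.59-fold higher than control (2.34 to 10.2). Ifi27l2a had 86, 4 and 3 counts over all cells and 20, 0 and 0 in the marked cells, where UV was at least 2.05-fold higher than control. Bst2, which encodes tetherin, had 28, 1 and 3 counts, and 15, 1 and 0 in the marked cells. The remaining cells moved the same way, with 189, 20.6 and 19.5 CPM of Ifi27l2a and 572, 390 and 281 CPM of Ly6e. Of the class I genes, 4 of 14 were higher and 1 lower in UV than in control over all cells (median 0.46), and 4 of 10 higher and 1 lower in the marked cells (median 0.44). B2m, the class I light chain, stood at 4709, 3758 and 3174 CPM over all cells and at 4056, 4181 and 1947 CPM in the marked cells, where UV was 2.08-fold higher than control (1.67 to 2.62).

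Immediate early and heat shock genes were more often lower than higher in each comparison. Over all cells 4 were higher and 10 lower of 26 in UV than in control (median -0.21, the same as over all genes), and in the marked cells 3 higher and 13 lower of 21 (median -0.80). In UV plus vitamin D, 0 were higher and 13 lower of 25 than in control over all cells (median -0.59), and 0 higher and 11 lower of 12 in the marked cells (median -1.55). Compared with UV, UV plus vitamin D had 3 higher and 7 lower of 25 over all cells (median -0.36), and 0 higher and 13 lower of 19 in the marked cells (median -0.83). Jun, a subunit of AP-1, stood at 390 CPM in UV, 257 CPM in UV plus vitamin D and 657 CPM in control cells, and at 355, 142 and 921 CPM in the marked cells, where UV was 0.385 times control (0.254 to 0.586) and UV plus vitamin D 0.154 times control (0.0586 to 0.345). Nfkbia, the inhibitor of NF-kB, stood at 813, 1076 and 2471 CPM in the marked cells, and Gadd45b, a stress-induced gene, at 258, 183 and 775 CPM. Egr1 ran the other way, at 303, 110 and 74.3 CPM over all cells and with 37, 3 and 0 counts in the marked cells, where UV was at least 3.80-fold higher than control.

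Genes of the p53 response were near the background. Over all cells 1 of 10 was higher and 3 lower in UV than in control (median -0.11), and in the marked cells 1 higher and 1 lower of 3 (median -0.17). Cdkn1a, the p53 target that encodes p21, stood at 1503 CPM in UV, 1625 CPM in UV plus vitamin D and 1466 CPM in control cells, and at 1483, 1136 and 1675 CPM in the marked cells, so the libraries differed by less than 1.5-fold in each setting. Bax, which encodes a pro-apoptotic protein, was 4.47-fold higher in UV than in control over all cells (2.44 to 8.56) and 4.004-fold in the marked cells (1.002 to 34.8, on 26 and 2 counts). Cell cycle genes were higher in UV, with 6 of 10 higher and 0 lower over all cells (median 1.01) and 5 higher and 1 lower of 6 in the marked cells (median 1.01). Mki67, the proliferation marker, stood at 71.9 CPM in UV, 83.9 CPM in UV plus vitamin D and 12.4 CPM in control cells, and at 116, 142 and 41.9 CPM in the marked cells, on 18, 7 and 2 counts. Cells with at least 3 counts over 9 cycle genes numbered 8 of 54 (14.8%, 6.62 to 27.1%), 5 of 25 (20%, 6.83 to 40.7%) and 4 of 53 (7.55%, 2.09 to 18.2%), and these intervals overlap. Among the marked cells they numbered 6 of 35, 2 of 9 and 0 of 14.

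Genes of vitamin D sensing were scarce in Langerhans cells. Vdr, the vitamin D receptor gene, had 5, 8 and 20 counts in UV, UV plus vitamin D and control cells, at 18.9, 41.9 and 41.3 CPM, below its level in the remaining cells of 41.5, 49.3 and 65.2 CPM. In the marked cells it had 1, 2 and 1 counts. Cyp27b1, which encodes the enzyme that makes active vitamin D, had 0, 0 and 1 counts. Of the 12 genes of the vitamin D list, 2 were measured for UV against control, and 0 were higher and 2 lower (median -0.80). Vdr was one of them, with a log2 ratio of -0.66 on 25 counts and a fold of 0.458 whose interval, 0.134 to 1.26, includes 1. The epidermal adhesion list had 0 genes higher and 7 lower of 11 in UV than in control over all cells (median -1.08) and 1 higher and 1 lower of 6 in the marked cells (median -0.07). Cdh1, the E-cadherin gene, stood at 114, 283 and 399 CPM over all cells and at 142, 60.9 and 83.7 CPM in the marked cells, on 22, 3 and 4 counts.

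**Figure D5:**
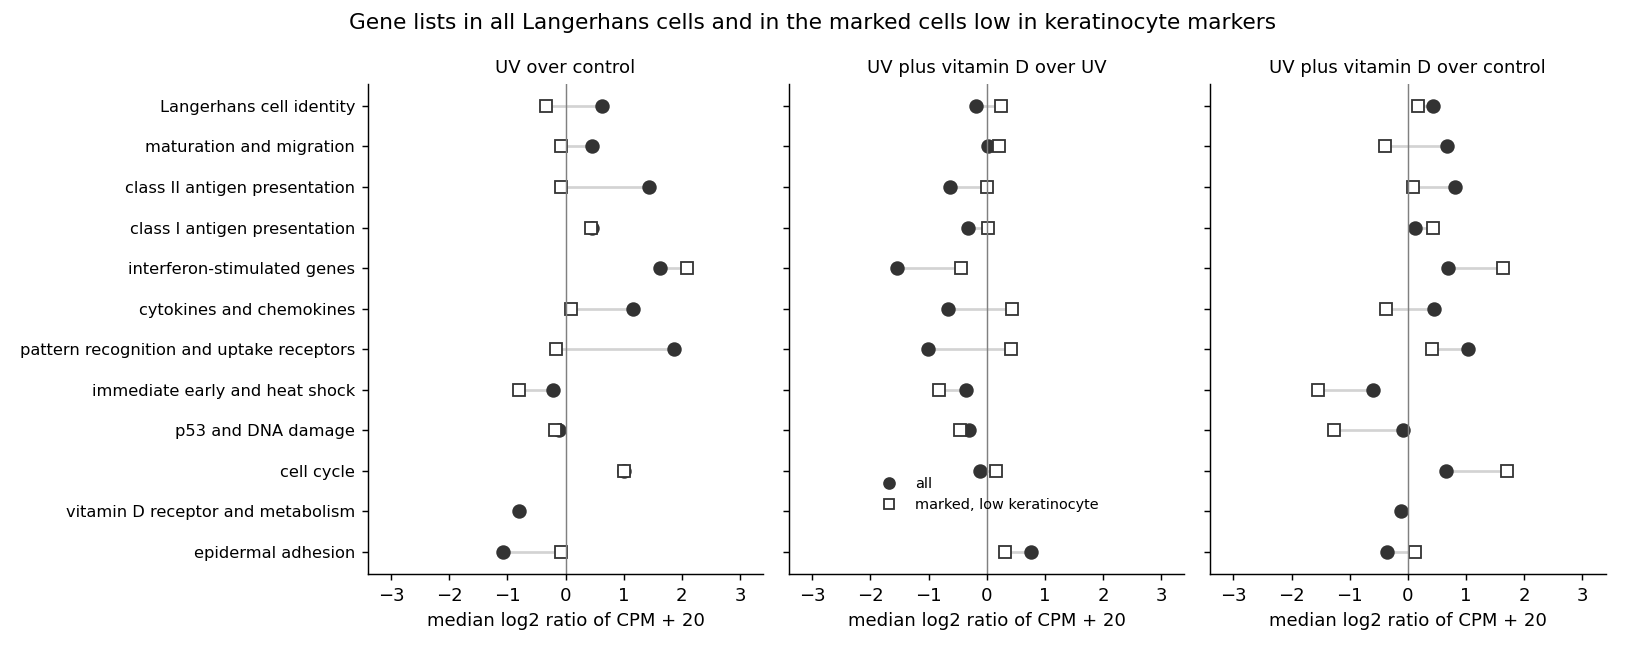
Median log2 ratio of CPM + 20 of each gene list, in 1 panel per comparison, with filled circles for all Langerhans cells and open squares for the marked cells (a symbol is missing where no gene of the list had 20 counts over the pair). For UV over control the class II median is 1.44 and -0.09, and the interferon list stays at 1.62 and 2.08.

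The whole libraries held 5451, 6199 and 9078 kept cells in UV, UV plus vitamin D and control skin, with 50610389, 69126823 and 79450666 counts. The lowest total of any deposited barcode was 3010, 3409 and 2822 counts, so Langerhans cells with less RNA than that were not analysed here. Kept barcodes shared between libraries numbered 54 for UV and control, 37 for UV plus vitamin D and UV, and 66 for UV plus vitamin D and control, and no barcode was a Langerhans cell in more than 1 library.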

How the data were processed

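The libraries are single-cell RNA-seq of whole skin made with a Singleron GEXSCOPE kit, per the labels' protocols. The deposited tables hold whole-number counts per gene and barcode, 1 table per library. FastQC, fastp, STAR and featureCounts are named in the submitters' processing notes, without versions. Those notes also name the human build GRCh38, while 97.9%, 98.0% and 98.0% of the gene symbols in the UV, UV plus vitamin D and control tables are mouse symbols of GENCODE M21. The sources used here do not say whether the counts are reads or molecules, and if they are reads, the intervals are too narrow.

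Barcodes with at least 200 genes and at most 20% mitochondrial counts were kept. Counts of the Langerhans cells were summed per library, scaled to CPM by the total, and compared as log2 ratios of CPM + 20 for genes with at least 20 counts over the pair. A difference of at least 1.5-fold was counted. No test was run, since each group has 1 library. Shares carry exact Clopper-Pearson 95% intervals, folds exact conditional 95% intervals on counts, and ratios of shares intervals on the log scale. A gene at 0 was set against a floor of 3 counts per library. All of these cover counting error only, and the fold intervals leave out variation between cells. Fold intervals are of CPM without the added 20. Doublets were neither called nor removed.

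The cells, the 12 gene lists and the 16 marker lists were chosen with earlier results of these data known. The text names, for each pair of libraries, the 8 genes furthest up and down that had 30 or more counts in the library where they stood higher, were found in 25% or more of its Langerhans cells, had no cell with over 30% of the counts, an interval beyond 1.5-fold, and a level there no lower than in the remaining cells. It also names the markers, a set of maturation and cytokine genes whatever their values, and up to 6 genes per list. One result under this rule is not reported here. Several further genes were picked after their values were seen (Pgf across libraries, Plaur and Cyba in the marked cells, Nfkbia, Gadd45b and Egr1). Alternatives covered the thresholds of the rule, the mitochondrial limit, depth, scaling, the added 20, the minimum count, the weight of each cell and cells left out. Promoter sequences are from RefSeq. Python 3.11.15, numpy 2.4.6, scipy 1.17.1, pandas 2.3.3 and matplotlib 3.10.9 were used, and the code was tested on simulated data.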

Additional observations from a re-analysis of the deposited data

How the results depend on the processing

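A total of 350 results was recomputed under up to 18 settings. The main ones were the shares, the counts of genes past 1.5-fold and the class II and maturation medians. These stayed within a set margin in 147 recomputations and moved further in 31. In 5 they changed sign from a value past 1.5-fold over all cells. The other lists and genes did so in 4285, 845 and 48. The margin was 1.5 times for counts of genes, and the counting interval for shares and single genes. For list medians it was an interval over the genes of the list, which is not counting error. A move of under 0.10 in log2 also counted as within it. Sign changes of smaller values are counted among those that moved further or did not. The settings that keep cells by keratinocyte counts or by other markers were chosen after seeing the data. The cause of the changes was not tested. With at most 1% keratinocyte-marker counts the log2 ratio of shares was 2.60 for UV over control, -2.40 for UV plus vitamin D over UV and 0.20 for UV plus vitamin D over control, and in the marked cells the first 2 were 2.06 and -2.14. Genes past 1.5-fold numbered 1822, 981 and 1002 for UV over control, UV plus vitamin D over UV and UV plus vitamin D over control as reported. In the same order they numbered 782, 595 and 286 at 1% keratinocyte counts or less, and 560, 412 and 226 in the marked cells, where fewer genes reach the minimum count. They numbered 722, 464 and 377 when cells were thinned to 2500 counts, 795, 474 and 249 with 100 added to the CPM, 878, 382 and 418 with a minimum of 50 counts, and 3388, 3438 and 2342 with no minimum. The maturation median for UV over control was 0.13 at 1% keratinocyte counts or less, -0.0694 in the marked cells, 0.10 when thinned and 0.24 with 100 added. For UV plus vitamin D over control it was -0.16, -0.39 and 0.12 in the first 3 of these settings. The class II median for UV over control was 0.30 at 1% keratinocyte counts or less and -0.0852 in the marked cells. For UV plus vitamin D over UV it was 0.0367 and 0.00627 in those settings, -0.50 when thinned and -0.52 without the 10% of cells with the most counts.

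For UV over control the following were past 1.5-fold over all cells and changed sign in the marked cells, with the log2 ratio there: the identity list -0.34, the receptor list -0.16, Cd207 -0.38, Cd74 -0.0156, Mfge8 -0.0877, Havcr2 -0.47, Ltc4s -0.61, H2-DMa -0.26, Cdh1 0.64, Srgn -1.09, Hist1h2bc -0.87, Fcgr2b -0.74, Napsa -0.15, Cd68 -0.24, H2-Aa -0.19, H2-Ab1 -0.26, H2-Eb1 -0.36, Ctsl 0.23, Ccr7 -1.83, Cd83 -0.76, Il1b -2.39, Cxcl2 -1.13, Tnf -1.45 and Il1r2 -0.30. Cd86 and H2-M2, which were under 1.5-fold over all cells, stood at -1.23 and -0.66 there. Ltc4s also did so when thinned (-0.34) and with each cell weighted the same (-0.0878), Tnf with each cell weighted the same (-0.0381), and the vitamin D list with no minimum (0.0637). For UV plus vitamin D over UV they were the cytokine list 0.44, the receptor list 0.41, Cd74 0.19, Cdh1 -1.001, Sfn -0.00772, H2-Aa 0.34, Ccr7 1.47, Il1b 1.58 and Cxcl2 0.49, with most of the UV plus vitamin D counts of the last 2 genes in 1 marked cell each. For UV plus vitamin D over control they were H2-DMa -0.23, H2-Eb1 -0.11, Ctss -0.38, Ccr7 -0.36, Cd86 -0.49, Il1b -0.81 and Tnf -0.43. The interferon list of that pair changed sign with looser thresholds (-0.70), a minimum of 50 counts (-0.17) and no minimum (-0.0535), and Ctsl with looser thresholds (0.17). No paired analysis was possible because each group has 1 library. The marked cells held 155072 counts in UV, 49276 in UV plus vitamin D and 47762 in control skin, where 1 count is worth more than 20 CPM in each of the last 2 libraries, so a gene at 0 there may stand as high as 60.9 and 62.8 CPM, the value of 3 counts.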
